A study of Dugesia japonica with 19 samples.

Results

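The head samples of a planarian regeneration series were followed as a time course, at m6A sites that could be read on most days. A site was a contig position and strand, and was kept when it was listed in at least 5 of the 6 head libraries with a median of 20 or more reads over the days it was listed. The rule left 495 sites on 379 transcript contigs, which was 12.6% of the 3936 sites listed in any head library and 8.47% of the 5847 sites of the whole series. Of these, 208 sites were listed on all 6 days and 287 on 5 days. In 269 of the 287 the missing day was day 10.

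The animal was Dugesia japonica, a freshwater flatworm, and the labels name no strain, genotype or drug. Tissue of 10 to 20 worms was divided by body region and pooled, and poly(A) RNA was selected from the pool. There was 1 head library on each of days 0, 1, 3, 5, 7 and 10, every one of them MazF-treated, and 1 control library of RNA transcribed in vitro, which carries no m6A. The labels do not say whether a head library was made from cut-off heads left to regrow or from the head region of regrowing worms, and they give no age. The contigs carry no gene names, so head markers could not be checked and the sites are given by contig and position.

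N6-methyladenosine (m6A) is a methyl group set on adenosines of messenger RNA by a methyltransferase complex, and it is read by proteins that affect splicing, stability and translation. Planarians rebuild missing tissue from a pool of dividing stem cells, so that the messenger RNAs of a regrowing piece change from day to day. In m6A-REF-seq the bacterial RNase MazF cuts at ACA when the adenosine is unmethylated and spares the motif when it is methylated. The share of reads left uncut at a motif is therefore read as a methylated share, and the m6A level is that share minus the uncut share of the control. Both quantities are fractions from 0 to 1. The control counts of a site were the same on every day, so at a given site the level and the uncut share moved by the same amount.

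The 495 sites were mostly uncut on every day. No cut read was seen on any day at 183 of them (37.0%), and the mean uncut share over days was between 0.99 and 1 at 74 more. A further 158 sites had a mean share between 0.9 and 0.99, 63 lay between 0.5 and 0.9, and 17 lay under 0.5. The 312 sites with a cut read had a median of 50 reads and the 183 without one had a median of 35. A listed share was at least 0.1 above the control's, which had a median of 0.694 over the 495 sites. Shares as high as these were therefore partly set by the listing.

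Mean m6A levels ran from 0.103 to 0.9, with a median of 0.252. At 166 sites the level was under 0.2, at 120 it was between 0.2 and 0.3, at 116 between 0.3 and 0.5, and at 93 it was 0.5 or more. Much of this range was set by the control, whose uncut share had a median of 0.694 over the sites and exceeded 0.5 at 69.1% of them. At the never-cut sites the level equals 1 minus the control's share, and its median there was 0.2.

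By strand, 277 of the sites (56.0%) were on the minus strand of their contig, against 53.9% of the 3441 other head sites. The first 20% of the contig's length held 29.7% of them and the last 20% held 16.6%, against 20.9% and 16.2% of the other head sites. Their contigs had a median length of 2019 bases, against 1850. These differences were not tested. At the edge of that minimum, position 1635 of TRINITY_DN1079_c0_g1_i2 and position 645 of TRINITY_DN10865_c0_g2_i1 were just inside with a median of 20 reads and mean shares of 0.953 and 0.993. Position 575 of TRINITY_DN4494_c2_g1_i2 and position 324 of TRINITY_DN5829_c0_g1_i2 were just outside with 19.5 reads and mean shares of 1 and 0.996.

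The depth of the 6 libraries differed, and day 10 stood apart. Reads at the 495 sites came to 124279 on day 0, 291444 on day 1, 227856 on day 3, 436515 on day 5, 219076 on day 7 and 10725 on day 10. Between 489 and 494 of the sites were listed on each of days 0 to 7, with a median of 35 to 67 reads, while 226 were listed on day 10 with a median of 6.5 reads. At least 20 reads were present at 416 to 482 sites on days 0 to 7 and at 48 on day 10.

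The sites that stayed on the list on day 10 were largely those with many uncut control reads. A listed row had a level of at least 0.1 and at least 11 uncut reads in the library or in the control. Of the 251 sites with 11 or more uncut control reads, 199 (79.3%) were listed on day 10, on a median of 5 reads. Of the other 244 sites, 27 (11.1%) were, on a median of 18 reads. A site that was not listed has no value on that day, and its m6A level there is unknown.

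The average uncut share of the head was nearly level over the course. At the 208 sites listed on all days, the mean share was 0.946 on day 0, 0.941 on day 1, 0.943 on day 3, 0.947 on days 5 and 7, and 0.954 on day 10. Day 10 was the highest and day 1 the lowest, and the SD over the 6 libraries was 0.0046. Pearson's r with day was 0.818 (exact two-sided permutation p = 0.0389, adjusted p = 0.194 over 5 daily relations), and r was 0.922 over the 4 days left without the 2 farthest from the median day. Spearman's rho was 0.771 (exact permutation p = 0.103, adjusted p = 0.514). The smallest p that 6 days allow is 0.00278. A site enters these means only if its share passed the control's by at least 0.1 on every day. At a median of 6.5 reads on day 10, 1 cut read could take a site with a high control share off the list. The listing can thus raise the day 10 mean and the r with day, and by how much was not tested.

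Without day 10 the mean share, then over 477 sites listed on all of the other 5 days, was 0.937, 0.932, 0.939, 0.940 and 0.939 in order of day. The r was 0.598 (exact permutation p = 0.308), and at the first 208 sites over the same 5 days it was 0.546 (exact permutation p = 0.308). When all sites were required to have 20 reads on each of the 6 days, 46 sites were left and r was -0.0519. Reads pooled over the 208 sites gave an r of -0.433. A median of at least 50 reads, at 123 sites, gave an r of 0.742 (exact permutation p = 0.0875). The rise with day did not pass the correction for 5 relations, and its sign turned in the 46 sites and in the pooled reads.

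The m6A level, averaged over the sites listed on each day, was 0.315 on day 0, 0.311 on day 1, 0.318 on day 3, 0.317 on day 5, 0.316 on day 7 and 0.290 on day 10. Days 0 to 7 lay within 0.311 to 0.318 and day 10 lay below them. The 226 sites behind the day 10 mean were fewer than the 489 to 494 behind the others, and at the 208 sites common to all days it was day 10 that had the highest share. Pearson's r of the level with day was -0.633 (exact permutation p = 0.178, adjusted p = 0.444), and 0.508 without day 10 (exact permutation p = 0.4).

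**Figure D1:**
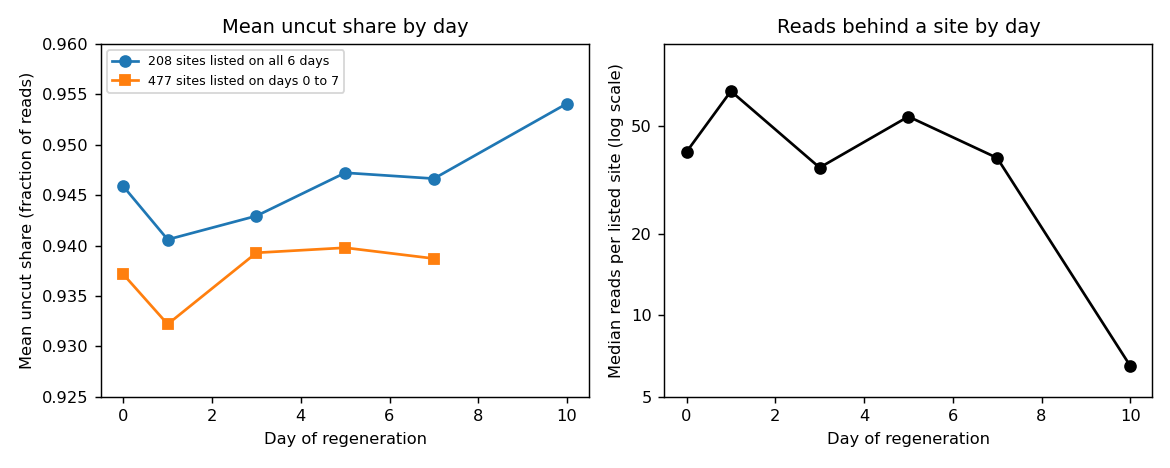
Left, mean uncut share (fraction) of the head sites on each day, for the 208 sites listed on all 6 days and the 477 sites listed on days 0 to 7. Right, the median reads per listed site on a log axis. The mean share of the 208 sites stays between 0.941 and 0.954, and its highest day, day 10, is the one where the median falls to 6.5 reads.

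The chance of finding a cut read, put on an even footing for depth, showed no relation with day that passed the test. If each site had been read 20 times, 39.2% of the 46 sites with 20 reads on all 6 days would have shown a cut read on day 0, 39.6% on day 1, 40.1% on day 3, 38.9% on day 5, 43.0% on day 7 and 34.2% on day 10. Day 7 was highest and day 10 lowest (r = -0.395, exact permutation p = 0.45, adjusted p = 0.5625). Over the 336 sites with 20 reads on each of days 0 to 7, the values were 34.3%, 36.0%, 35.6%, 35.7% and 35.1%. Before this evening out of depth, 50% to 58.7% of the listed sites showed no cut read on days 0 to 7, and 82.7% on day 10. The listing can also raise the day 10 value, since a cut read among few reads could leave a site unlisted. The size of this was not tested.

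The shares of single sites were related from day to day. Over the 10 pairs of days from 0 to 7, the uncut shares of sites with a cut read correlated at r = 0.919 to 0.946 (244 to 299 sites a pair), with a median absolute difference of 0.0222 to 0.0239. Spearman's rho over the same pairs was lower, at 0.712 to 0.784. These correlations are across sites that share libraries, so they are a description. Pairs with day 10 gave r = 0.883 to 0.938 over 38 or 39 sites.

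The range of a site's share over the days had a median of 0.0303, and 117 sites (23.6%) ranged over more than 0.1. Without day 10 the median range was 0.0272 and 98 sites (19.8%) passed 0.1. In the 336 sites with at least 20 reads on each of days 0 to 7, 62 ranged over more than 0.1 and 13 over more than 0.2. No one day was lowest throughout. Among the 227 of these with a cut read, the sole lowest share fell on day 0 at 50 sites, on day 1 at 54, on day 3 at 41, on day 5 at 40 and on day 7 at 39. The sole highest fell on day 5 at 38 sites and on the other days at 20 to 31.

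Counting error made up less of the spread between days at deeper sites. At 149 sites with 20 to 50 reads, the median SD between days 0 to 7 was 0.0347 and the SD given by counting alone was 0.0338. At 112 sites with 50 to 200 reads they were 0.0208 and 0.0188, and at 24 sites with 200 to 1000 reads 0.0169 and 0.0128. At the 16 sites with 1000 or more reads the SD between days was 0.0109 and the counting SD 0.0026. The ratio of observed to counting variance had a median of 1.06 in the shallowest class and 23.2 in the deepest. The deepest sites came from few transcripts, with 17 sites (16 of them cut) on 5 contigs. With 1 library a day, a change with day and a difference between library preparations cannot be told apart.

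**Figure D2:**
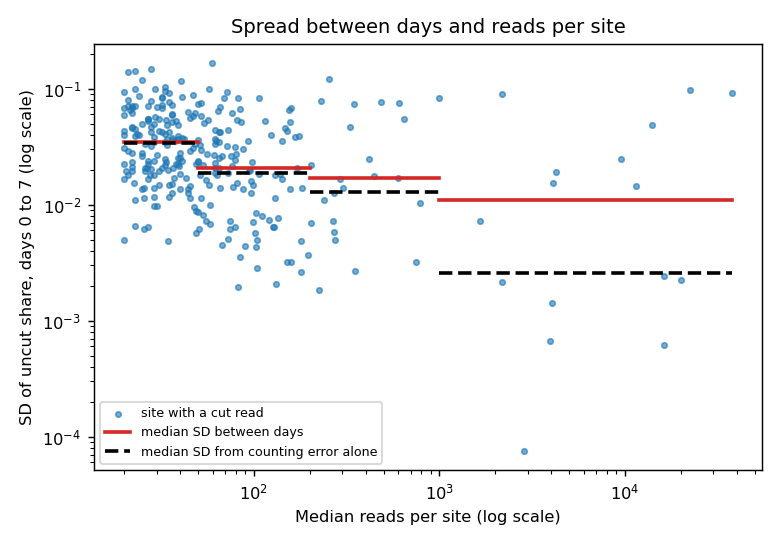
Standard deviation of the uncut share over days 0 to 7 against median reads per site, both on log axes. Points are head sites with a cut read, and the lines give the class medians of the observed SD and of the SD expected from counting. The lines lie together at 20 to 50 reads (0.0347 and 0.0338) and part at 1000 or more reads (0.0109 and 0.0026).

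A trend with day was fitted at every head site listed on at least 4 days with any cut read, as a quasi-binomial regression of uncut and cut reads on day. No site passed the adjusted p of 0.05, neither among the 312 followed sites that could be fitted nor among all 588 (0% higher and 0% lower). At an unadjusted p under 0.05 there were 15 followed sites, 10 rising and 5 falling, of 30 among all 588, and the smallest adjusted p was 0.664 with the dispersion shrunk by limma. A linear model of the shares in limma also called 0, with 23 followed sites at an unadjusted p under 0.05. Without day 10 the quasi-binomial count was again 0, with 13 sites at an unadjusted p under 0.05.

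The fitted changes, as the share on a site's last listed day minus that on its first, were small. They were above 0 at 174 sites and below 0 at 138, with a median of 0.00503 and a median size of 0.0264. The 95% interval of the change lay within 0.1 of no change at 118 of the 312 sites (37.8%), within 0.2 at 219 (70.2%) and within 0.3 at 278 (89.1%). Without day 10 these were 135, 232 and 290 sites. A change of 0.3 across the course was thus outside the interval at most sites, while at the majority the interval reached past 0.1 in at least 1 direction. The first of these was partly fixed beforehand. A share cannot pass 1, and a listed share is at least 0.1 above the control's, which had a median of 0.610 at the 312 sites. At many sites the listed shares could therefore not differ by 0.3, so the bound says little about them.

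**Figure D3:**
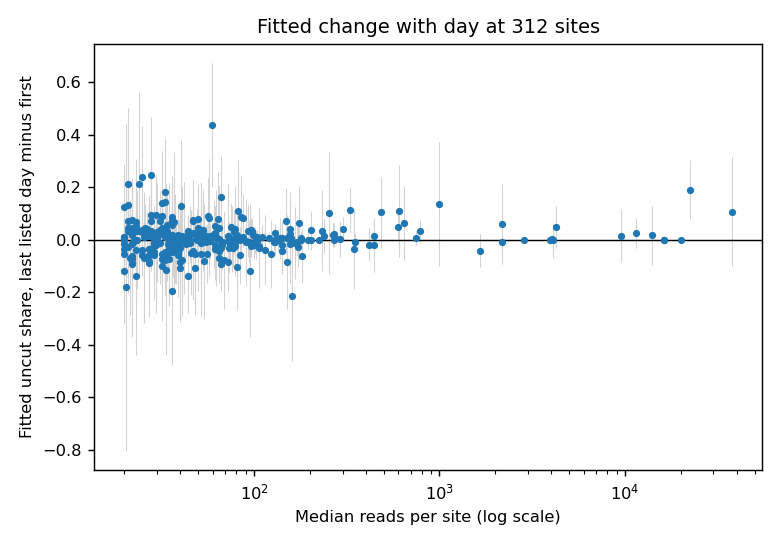
Fitted change in uncut share from first to last listed day at the 312 fitted sites, with the 95% interval, against median reads per site (log axis). Most points lie near 0, at a median of 0.00503, and none passed the adjusted threshold.

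The sites nearest to a trend rose, and both had partial cutting. Position 2344 of TRINITY_DN4483_c0_g1_i3 (plus strand, contig of 2727 bases) was uncut in 17 of 69 reads on day 0, 32 of 63 on day 1, 25 of 46 on day 3, 45 of 64 on day 5, 31 of 56 on day 7 and 4 of 4 on day 10. Its share was 0.246 on day 0 (95% Wilson interval 0.16 to 0.36), 0.508, 0.543, 0.703 and 0.554 on days 1 to 7, and 1 on day 10 (0.51 to 1). Day 0 lay below every later day, and the day 10 value rested on 4 reads. The control was uncut in 13 of 158 reads (0.0823), so that nearly the full range of the level was open to the site. These intervals, as all Wilson intervals here, cover counting error only, and reads copied by PCR are not independent molecules. The intervals of the fitted changes also take in the spread of libraries around the fit, most of it borrowed from sites of like depth.

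The fitted change at that site was 0.436 ± 0.114 (SE, 6 libraries; adjusted p = 0.664 by the limma-shrunk regression), and 0.308 ± 0.0986 without day 10. It was 0.189 without day 0 and 0.618 without day 7, so its size rested on single libraries. Position 448 of TRINITY_DN678_c0_g2_i4 (minus strand, contig of 5705 bases) was covered far more deeply. Its share was 0.284 of 12649 reads on day 0, 0.375 of 31414 on day 1, 0.477 of 21920 on day 3, 0.532 of 49817 on day 5 and 0.466 of 22496 on day 7, with no listed value on day 10. Its lowest listed day was again day 0 and its highest day 5. The control share was 0.122 (278 of 2282 reads uncut), and the mean level over the 5 days was 0.305 ± 0.0977 (SD). By the listing filter, a share under 0.222 would leave this site off the list. With 278 uncut control reads, a low read count alone would not, though a lack of any reads would. Position 2059 of the same contig had 1035 reads on day 10. Which of these held at position 448 was not tested. The fit leaves day 10 out, so the rise described here covers days 0 to 7 only.

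The fitted change at position 448 was 0.191 ± 0.0543 (SE, 5 libraries; adjusted p = 0.664 by the limma-shrunk regression). These sites were called as rising when time was taken as log2(day + 1), with adjusted p of 0.0432 for position 2344 and 0.0105 for position 448 (quasi-binomial with limma shrinkage, 0.34% of 588 sites called higher). Position 448 was also called without day 3 (adjusted p = 0.00214 with limma shrinkage, 0.176% of 569 sites). Without day 0 its change was 0.126, at an unadjusted p of 0.0669 by the limma-shrunk regression. Without day 7, 4 followed sites were called higher (0.702% of 570 sites) and 1 lower (0.175%). In the fits without day 3 or day 7, the dispersion followed read depth alone. A site's own spread between libraries therefore did not enter those p-values. In the log2(day + 1) fit the dispersion prior carried 78.78 degrees of freedom, against 17.8 in the main fit. A site's own spread thus counted for little in the 2 calls on that scale. In the trunk libraries position 448 had a mean share of 0.946 ± 0.0165 (SD, n = 6) and in the tail libraries 0.954 ± 0.012 (SD, n = 6), against 0.427 in the head. On none of its 5 listed days did the head share of this site reach 0.6, and the difference between regions was not tested.

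Among the followed sites with 20 reads on each of days 0 to 7, the other 4 of the 6 widest ranges took different courses. Position 241 of TRINITY_DN12211_c0_g1_i1 had shares of 0.444 (12 of 27 reads) on day 0, then 0.712, 0.743, 0.786 and 0.81 on days 1, 3, 5 and 7. Position 820 of TRINITY_DN16393_c0_g1_i2 had 0.763 on day 0, 0.422 (147 of 348 reads) on day 1, 0.644, 0.62 and 0.618 on days 3, 5 and 7, and 1 (5 of 5 reads) on day 10. The first was lowest on day 0 and the second on day 1.

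Position 558 of TRINITY_DN12574_c0_g1_i1 had its highest share on day 3, 0.8 (16 of 20 reads), with 0.552 to 0.679 on the other 5 days. Position 1074 of TRINITY_DN1255_c0_g1_i2 ranged from 0.667 on day 5 to 0.909 on day 3. At both, the 95% Wilson intervals of the highest and lowest days overlapped (0.584 to 0.919 against 0.375 to 0.716, and 0.764 to 0.969 against 0.53 to 0.78). The site on TRINITY_DN16393_c0_g1_i2 had near-complete shares in trunk (0.998 ± 0.00293, SD, n = 6) and tail (0.999 ± 0.00193, SD, n = 6). Its head mean over days was 0.678 ± 0.192 (SD, n = 6), and 0.613 ± 0.122 (SD, n = 5) without the 5 reads of day 10.

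**Figure D4:**
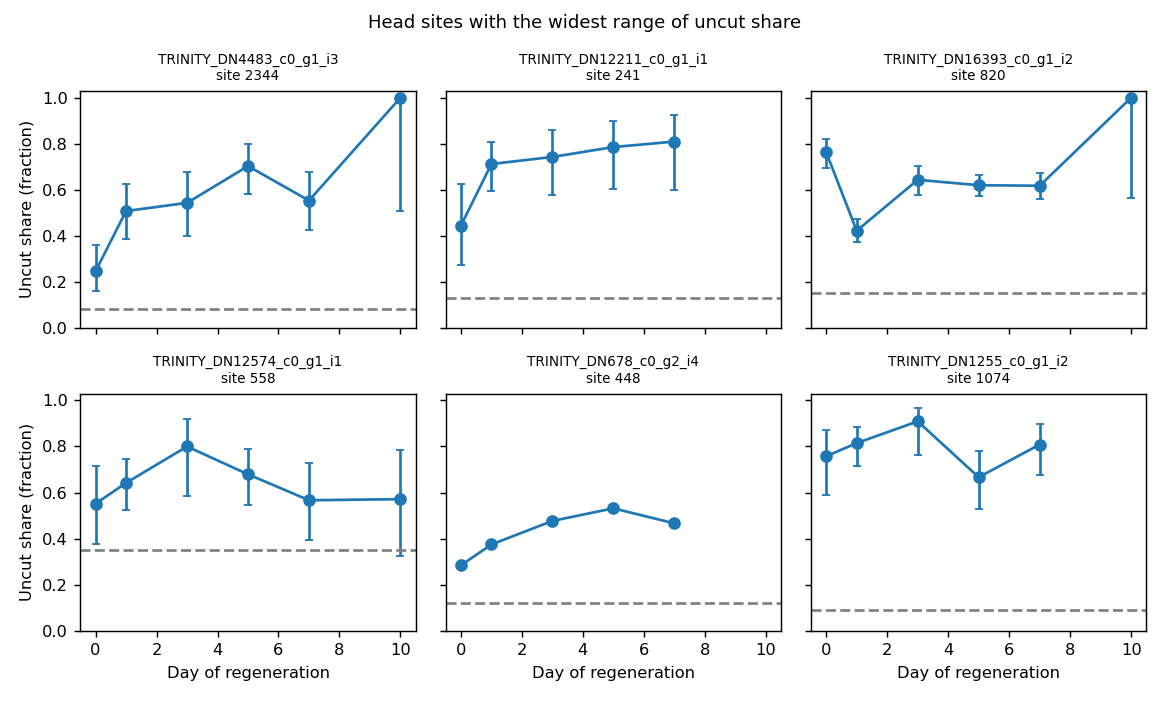
Uncut share by day at the 6 sites with the widest range over days 0 to 7, with 95% Wilson intervals as bars and the control's share as a dashed line. Position 2344 of TRINITY_DN4483_c0_g1_i3 starts at 0.246, position 448 of TRINITY_DN678_c0_g2_i4 goes from 0.284 to 0.532 on day 5, and the day 10 points rest on 4 to 14 reads.

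The 5 sites with the lowest mean share were cut on every listed day. Position 980 of TRINITY_DN15544_c0_g1_i1 had shares of 0.314, 0.241, 0.263, 0.234, 0.304 and 0.2 in order of day (mean 0.259 ± 0.0438, SD, n = 6). Position 660 of TRINITY_DN3877_c0_g1_i1 had 0.231, 0.238, 0.269, 0.345 and 0.252 on days 0 to 7 (mean 0.267 ± 0.0457, SD, n = 5). Their fitted changes were 0.00697 ± 0.103 and 0.0721 ± 0.0605 (SE), and neither passed the trend test.

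Position 3045 of TRINITY_DN2537_c0_g1_i7 had 0.214, 0.225, 0.207, 0.434 and 0.303 on days 0 to 7. Position 770 of TRINITY_DN6413_c0_g1_i2 had 0.267, 0.289, 0.224 and 0.254 on days 0, 3, 5 and 7 and 0.4 (4 of 10 reads) on day 10. Position 1951 of TRINITY_DN1290_c0_g1_i7 had 0.301, 0.28, 0.273, 0.465, 0.27 and 0.333 in order of day, on 302, 926, 1062, 2542, 1072 and 15 reads. For the first and last of these, day 5 was the highest day. All 5 sites had a control share between 0.0803 and 0.116, so a listing needed a share of about 0.18 to 0.216, and a day on which the share fell below that would be missing from the list.

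The 5 sites with the highest mean level were mostly whole in the head and mostly cut in the control. Position 212 of TRINITY_DN1716_c0_g1_i1 had no cut read in 42, 90, 28, 78 and 52 reads on days 0 to 7 and a level of 0.9. Position 1444 of TRINITY_DN24922_c0_g1_i1 was uncut in all reads on days 0, 1, 5 and 7 and in 21 of 23 on day 3 (mean level 0.892 ± 0.0389, SD, n = 5). Position 888 of TRINITY_DN15410_c0_g2_i1 was lowest on day 1, at 22 of 25 reads, with 0.973 to 1 on the other listed days (mean level 0.865 ± 0.0495, SD, n = 5). The control behind these 3 levels held 10 to 20 reads, so its share of about 0.1 has a wide interval, from 0.0179 to 0.404 at the last of them.

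Position 4071 of TRINITY_DN9503_c0_g1_i1 had shares of 0.788, 1, 0.818, 1 and 0.97 on days 0 to 7, on 23 to 33 reads, and a mean level of 0.838 ± 0.104 (SD, n = 5). Position 238 of TRINITY_DN1233_c0_g1_i3 had the smallest SD of the 4 sites of this group that were ever cut. Its shares were 1, 0.986, 0.981, 0.992, 0.99 and 1, with 191 to 243 reads on days 0 to 7 and 21 on day 10, against a control of 26 uncut in 166 reads. Its mean level was 0.835 ± 0.00748 (SD, n = 6), and the sites on TRINITY_DN1716_c0_g1_i1, TRINITY_DN24922_c0_g1_i1, TRINITY_DN15410_c0_g2_i1 and TRINITY_DN9503_c0_g1_i1 were in no trunk or tail list.

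Each later library was then set against the day 0 library by Fisher's exact test, site by site, with p adjusted over all head sites listed in both. These tests compare pairs of libraries and not conditions, and the day 0 library is shared by all 5. On day 1, 5 of 486 followed sites were called higher and 7 lower, where 0.357% and 0.5% of all 1400 sites tested were (0.857% in either direction). On day 3, 7 of 485 were higher and 1 lower, against 0.583% and 0.0833% of 1200 sites (0.667% together). On day 5, 9 of 489 were higher and 6 lower, against 0.672% and 0.448% of 1340 sites (1.12% together). Day 7 had 6 of 490 higher and 1 lower, against 0.48% and 0.0801% of 1249 sites (0.56% together). Day 10 had 2 of 222 higher and 4 lower, against 0.437% and 0.873% of 458 sites (1.31% together).

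Every site called by Fisher's exact test in the head was one of the followed sites, which are also the deep ones. The median difference from day 0 was 0 on each later day. The 48 calls fell on 21 sites of 13 contigs, and 18 of the 21 were among the 45 followed sites with a median of 200 or more reads. Of the 21 sites, 9 were called higher only, 7 lower only and 5 in both directions on different days.

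Position 339 of TRINITY_DN155747_c0_g1_i1 (minus strand, contig of 1024 bases) had the most reads and was called on all 5 later days. Its shares were 0.426, 0.345, 0.584, 0.407, 0.498 and 0.508 in order of day, on 14455, 38242, 41120, 60397, 37316 and 2364 reads. It was lower than day 0 on days 1 and 5 and higher on days 3, 7 and 10, from -0.0809 to 0.158. The trunk libraries had a like mean of 0.426 ± 0.144 (SD, n = 6), and the tail libraries were almost whole at 0.997 ± 0.00541 (SD, n = 6).

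The neighbouring positions 554 and 581 of that contig were whole on every day. Their shares were 0.996 to 0.999 and 0.994 to 1, on 1210 or more reads a day. Position 339 was the lowest of the 3 sites on all 6 days, between 0.345 and 0.584. Its changes went in both directions while the neighbours moved by at most 0.00611.

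Position 1596 of TRINITY_DN678_c0_g2_i4 was also called on all 5 later days. Its shares were 0.931, 0.965, 0.963, 0.972 and 0.96 on days 0 to 7, and 0.591 on day 10 (52 of 88 reads, 95% Wilson interval 0.486 to 0.688). Against day 0 it was higher by 0.0284 to 0.0401 on the first 4 later days, and lower by 0.341 on day 10 (Fisher's exact test, adjusted p = 1.29e-14). Only the day 10 library went below day 0.

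Position 360 of TRINITY_DN19986_c0_g1_i8 (minus strand, contig of 1196 bases) was called higher on days 1, 3, 5 and 7. Its shares were 0.903, 0.924, 0.937, 0.928, 0.94 and 0.911 in order of day, on 394 to 26091 reads. The rise over day 0 was 0.0212 to 0.0365 on those 4 days and 0.00811 on day 10, which was not called (adjusted p = 1 by Fisher's exact test). Position 448 of TRINITY_DN678_c0_g2_i4 was higher on the same 4 days, by 0.0907, 0.193, 0.248 and 0.182 in order. Position 2059 of that contig, with a median of 20161.5 reads, was called on 4 days for differences of -0.00679 to 0.000991 from a day 0 share of 0.998.

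A few sites outside the naming rule were picked after their values were seen. Position 170 of TRINITY_DN3754_c0_g1_i2 had shares of 0.977, 0.845, 0.945, 0.812, 0.91 and 0.25 in order of day, the last on 12 reads, and was called lower on days 1, 5 and 10. Position 314 of TRINITY_DN1021_c0_g1_i1 had 0.661, 0.849, 0.832, 0.764, 0.833 and 0.64, and was called higher on days 1, 3 and 7. Position 1045 of TRINITY_DN1290_c0_g1_i7, on 11025 or more reads on days 0 to 7, had 0.884, 0.798, 0.902, 0.812, 0.891 and 0.876. The first was lowest on day 10, the second on days 10 and 0, and the last on days 1 and 5.

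The reads of the followed sites were concentrated on 2 contigs. TRINITY_DN678_c0_g2_i4 took 36.3%, 48.1%, 37.1%, 51.9%, 35.5% and 13.5% of them in order of day, and TRINITY_DN155747_c0_g1_i1 took 21.6%, 21.7%, 35.6%, 25.5%, 36.5% and 44.6%. A pooled uncut percent over all sites, which was 79.0, 78.3, 81.3, 80.9, 80 and 84.6, was therefore largely that of these transcripts. The pooled uncut percent of TRINITY_DN678_c0_g2_i4 alone was 71.9, 80, 76.9, 84.1, 75.3 and 96.7. Its rise on day 10 goes with the loss of sites from the list, since 7 of its 15 sites were not listed on that day. The 8 sites still listed had shares of 0.88 to 1 on day 0, 0.9 to 1 on day 7 and 0.591 to 1 on day 10. At the deepest of them, position 2059, the share was 0.998 on day 0, 0.995 on day 7 and 0.991 on day 10. How much of the rise the loss of sites makes up was not tested.

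TRINITY_DN678_c0_g2_i4 carried 15 followed sites between positions 448 and 5110, 14 of them on the minus strand. At 10 of them the mean share was 0.9 or more, and 3 of these (positions 2266, 4847 and 5110) were never cut. The 3 sites under 0.6 lay apart from each other, at positions 448, 3263 and 3538. Position 3263 had shares of 0.346, 0.305, 0.373, 0.335 and 0.344 on days 0 to 7. Position 3538 had 0.534, 0.556, 0.665, 0.502 and 0.71 on the same days. The order of days differed between the 3 sites, with the highest on day 5, day 3 and day 7, and none of the 3 was listed on day 10.

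**Figure D5:**
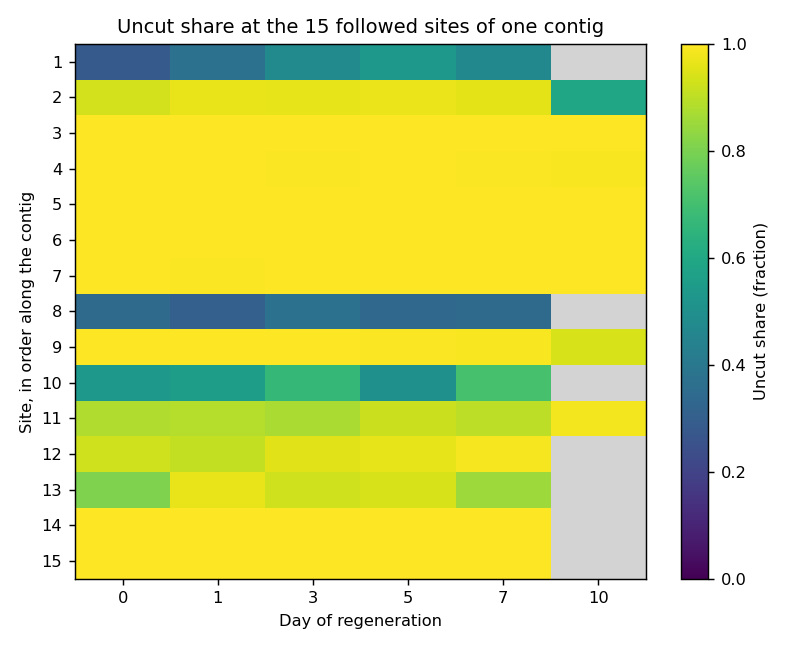
Uncut share (colour, fraction) on each day at the 15 followed sites of TRINITY_DN678_c0_g2_i4, in order along the contig, with days not listed in light grey. The 3 sites with a mean share under 0.6 are darker on days 0 to 7 and grey on day 10, while 10 sites have a mean share of 0.9 or more.

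Of the 379 contigs, 310 carried 1 followed site, 49 carried 2, and 7 carried 4 or more. TRINITY_DN2852_c1_g1_i5, of 8016 bases, carried 8 sites with mean shares from 0.677 to 1, 3 of them never cut. TRINITY_DN1290_c0_g1_i7, of 3433 bases, carried 6 with mean shares from 0.32 to 1, and TRINITY_DN2849_c0_g1_i4, of 2467 bases, carried 6 from 0.723 to 1. Each of these contigs thus mixed whole and partly cut sites, and the widest range over days 0 to 7 on them was 0.0961, 0.195 and 0.146.

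Neighbouring sites of the same contig and strand could differ sharply. Over 28 neighbouring pairs at most 50 bases apart, the mean shares differed by a median of 0.0138 and by as much as 0.649. Over 25 pairs 51 to 200 bases apart the median was 0.0373, over 24 pairs up to 1000 bases apart 0.0428, and over 9 pairs farther apart 0.0232. The widest close pair was positions 1951 and 1999 of TRINITY_DN1290_c0_g1_i7, 48 bases apart, with mean shares of 0.32 and 0.97. In 13 of the 86 pairs, positions 554 and 581 of TRINITY_DN155747_c0_g1_i1 among them, the read counts were within 5% of each other on every listed day. The medians above include these pairs, whose sites may not be independent of each other.

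The same rule gave 145 sites in the trunk libraries and 84 in the tail libraries. The head shared 55 sites with the trunk set (11.1% of the head set and 37.9% of the trunk set) and 37 with the tail set (7.47% and 44.0%). In no trunk or tail library at all were 229 of the 495 head sites (46.3%). The share in neither region was 51.9% of the never-cut sites and 42.9% of the others.

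Whether the head moved with day otherwise than the trunk was tested on the daily difference at 37 sites listed on all days in both with a median of 20 reads in each. The head mean was below the trunk mean by 0.0433 on day 0, and the head minus trunk difference was -0.0858, -0.0693, -0.0693, -0.0750 and -0.0713 on the later days. It was negative on all 6 days, smallest on day 0 and widest on day 1, and its r with day was -0.318 (exact permutation p = 0.576, adjusted p = 0.576). Without day 10, at 48 sites, r was -0.352 (exact permutation p = 0.617). Without day 0 the r was 0.650, so the sign of this relation rested on that library.

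Against the tail, at 28 sites, the head minus tail difference was -0.103, -0.133, -0.106, -0.0952, -0.114 and -0.0950 in order of day. It was again negative on each day and widest on day 1. Its r with day was 0.465 (exact permutation p = 0.3625, adjusted p = 0.5625), and 0.298 without day 10 at 33 sites (exact permutation p = 0.65). Neither relation passed an exact permutation p of 0.05, and the head values come from the same libraries in both.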

How the data were processed

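The deposited tables hold, per the file headers, read counts (uncut and all reads) at each listed site in 1 library and in the control, with the uncut share and the m6A level as deposited fractions and the contig length as another deposited value. Per the submitters' processing notes the tools included fastp 0.20.0, HISAT2 2.4.2 and FastQC. Which program counted cut and uncut reads is not given in any source used here. In all 23432 rows the share equalled uncut over all reads and the level equalled the library's share minus the control's, within 1e-09. The listing filter was read from the values, the lowest level being 0.1 and the lowest of the higher uncut count (library or control) 11. The control columns carry the letters fto beside IVT and were taken as the IVT library. Total sequencing depth is unknown. The labels give 1 library for each region and day, and nothing says that numbers pair them otherwise.

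Libraries were grouped by region and day from the labels. The trend was a quasi-binomial logistic regression of uncut and cut reads on day at 588 head sites listed on at least 4 days with a cut read. Its Pearson dispersion was squeezed toward a prior following log2 reads (limma 3.58.1 in R 4.3.3, prior estimated at sites with 10 or more cut reads, lowest dispersion 1), with an F test and Benjamini-Hochberg adjustment at 0.05. That prior was chosen on simulated data. With 1 library a day, the trend p-values measure a slope against the spread of single libraries around a line. Most of that spread was borrowed from other sites of like depth, since the prior carried 17.8 degrees of freedom in the main fit. Daily summaries used exact permutation over 720 orders of the days (120 for 5 days). Fisher's exact test, two-sided, was adjusted within each day. Intervals of shares are 95% Wilson intervals (scipy 1.17.1). The trend script was tested on simulated data.

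The followed sites, the lists and the tests were chosen with earlier results of these data known. Named sites are those past the trend test (there were 0), the 6 widest ranges over days 0 to 7 with 20 reads on each day, the 5 lowest mean shares, the 5 deepest with a cut read, the 5 highest mean levels, the 4 with the most Fisher calls and the 4 contigs with the most sites. Alternatives were read minimums of 10 and 50, sites on all 6 days, log2(day + 1), other dispersion priors, a limma model of shares, pooled reads, and leaving out each day.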

Additional observations from a re-analysis of the deposited data

Results flagged for a closer look

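In 7 of the 24 daily series checked, 1 library lay apart from the others by more than Dixon's limit. The limit is 0.625 for 6 days and 0.71 for 5. For normally distributed values chosen beforehand, chance passes it about 1 time in 20. The named sites were picked by their values in these libraries, so the count of 7 cannot be set against that rate. The mean m6A level over listed sites was lowest on day 10, at 0.290, where 226 sites were listed. Position 1596 of TRINITY_DN678_c0_g2_i4 was lowest on day 10, at 0.591. Position 241 of TRINITY_DN12211_c0_g1_i1 was lowest on day 0, at 0.444. Position 1951 of TRINITY_DN1290_c0_g1_i7 was highest on day 5, at 0.465. Position 581 of TRINITY_DN155747_c0_g1_i1 was lowest on day 5, at 0.994. Position 1444 of TRINITY_DN24922_c0_g1_i1 was lowest on day 3, at 0.913, with every other listed day at exactly 1. Position 888 of TRINITY_DN15410_c0_g2_i1 was lowest on day 1, at 0.88. The lone days were thus 5 different ones over these 7 series. What set them apart was not tested.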

How the results depend on the processing

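With 1 library a day, and 10725 reads at the followed sites on day 10, no result has a replicate of its own day. The r of the mean uncut share with day was -0.433 from pooled reads, -0.0519 at sites with 20 reads on every day, 0.662 for the median over cut sites, 0.723 and 0.742 with minimums of 10 and 50 reads, 0.629 on the log2(day + 1) scale, and 0.546 over days 0 to 7 at the same sites, an alternative added after seeing the data. Leaving out each day in turn gave 0.598 (without day 10) to 0.964 (without day 0). The r of the mean level was 0.742 with a minimum of 50 reads, and -0.780 to 0.508 with 1 day left out, 0.508 being without day 10. The r of the share of sites with a cut read in 20 reads was -0.881 to 0.215, and that of head minus trunk -0.779 to 0.650. The r of head minus tail stayed between 0.283 and 0.682.

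The count of rising sites by the trend test was 2 on the log2(day + 1) scale and 0 to 4 with 1 day left out (1 without day 3, 4 without day 7), and that of falling sites 0 to 1. Without day 3, 5 or 7 the fitted prior left no spread of dispersion between sites of like depth. On the log2(day + 1) scale the prior also weighed more than in the main fit. Against day 0, a minimum of 50 reads gave 8 sites higher on day 1, 2 lower on day 3 and 3 lower on day 7, and a minimum of 20 gave 2 lower on day 7. In each case the cause was not tested. In the other 67 recomputed results, an r kept its sign and its side of the threshold, and a trend count stayed equal. A Fisher count stayed equal or close, such as 6 and 8 sites higher on day 7. Head, trunk and tail libraries were matched by day in the regional differences. The labels give no replicate numbers within a day, so no fit has a replicate block. On day 10, 48 of the 226 listed sites had 20 or more reads, and at the other sites the counting error was correspondingly wide.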
